A study of Mus musculus with 22 samples.

Results

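Copy number inside 3 very large genes, Fhit, Wwox and Ctnna3, was examined in thymocyte DNA of 22 Atm-deficient mice. The genes are the mouse counterparts of genes that lie at human common fragile sites. They were found as probes that carry one of these symbols as gene name in the array files. Together they hold 434 of 220065 autosomal probes and are 3 of 24624 autosomal genes named on the array. Of all genes, 1315 had at least 20 probes and enough probes in their flanks to be compared with them, and 62 of these had at least 100 probes, as all 3 genes do.

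Lymphoma mice were compared with mice labelled macroscopically without findings, called no-lymphoma mice here, with 1 array per mouse. In 8 mice a T-cell lymphoma had formed, and 14 mice had no finding to the naked eye. All 22 mice were deficient for Atm, a kinase of the response to DNA breaks, and none was treated. On each Agilent mouse CGH array the Cy5-labelled DNA of the Atm-deficient mouse competed with Cy3-labelled DNA of wildtype thymocytes. Each value is the log2 of the Cy5 over the Cy3 signal, centred on the median autosomal probe of the array, so 0 means the copy number of the wildtype reference and -1 means loss of 1 of 2 copies in all cells. A loss carried by only part of the cells gives a smaller shift. The labels give no strain, sex or age, do not say which part of Atm is altered, and do not say whether the wildtype DNA was a pool. Since no expression was measured, the label thymocytes could not be checked against marker genes.

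Common fragile sites are chromosome regions that show gaps and breaks when DNA replication is slowed. They tend to lie in very long genes that replicate late in S phase, and deletions within such genes are common in human tumours and cultured cells. Fhit encodes a diadenosine triphosphate hydrolase, Wwox an oxidoreductase with WW domains, and Ctnna3 the adhesion protein alpha-T-catenin.

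In the coordinates of the array files, whose genome build the sources used here do not name, the first to the last Fhit probe spans chr14:7380567-8973392. That is 1.59 Mb with 116 probes. Wwox spans chr8:113057324-113965065, which is 0.908 Mb with 119 probes. Ctnna3 spans chr10:62954481-64510117, which is 1.56 Mb with 199 probes. Probes lie 7230 to 7510 bp apart in the median, so 5 probes in a row cover 30.4 to 31.4 kb. Fhit is sampled unevenly, with only 3 probes in the first of 4 equal parts of its length and a gap of 360 kb after the first probe. Base composition is alike: the probes of the 3 genes hold 36.5% to 37.0% G and C, against 35.8% to 37.2% in the 1 Mb flanks and a median of 36.6% over the 1315 genes. The files do not mark exons or introns, so only the gene is given for each probe.

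The 6 probes below carry the single-probe results. Each is printed 5′ to 3′ as in the array files, with G and C in capitals to show base composition. The first is the isolated first probe of Fhit at chr14:7380567-7380626, with 21.7% G and C and a run of 18 T. The next 2 are the most variable probes of Wwox, at chr8:113171955-113172014 and chr8:113471554-113471613. For Ctnna3 they are the first probe of the lost stretch, at chr10:63343676-63343735, and the 2 probes that differed between the groups, at chr10:63642196-63642255 and chr10:64144385-64144444.
Fhit first probe: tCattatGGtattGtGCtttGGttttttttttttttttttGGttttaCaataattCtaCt
Wwox probe at 115 kb: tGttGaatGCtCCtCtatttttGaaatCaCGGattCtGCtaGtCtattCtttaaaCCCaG
Wwox probe at 414 kb: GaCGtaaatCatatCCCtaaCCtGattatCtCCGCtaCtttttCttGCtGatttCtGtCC
Ctnna3 probe at 389 kb: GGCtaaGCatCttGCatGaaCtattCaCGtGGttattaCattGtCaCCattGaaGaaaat
Ctnna3 probe at 688 kb: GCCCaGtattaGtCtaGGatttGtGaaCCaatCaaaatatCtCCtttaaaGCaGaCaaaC
Ctnna3 probe at 1190 kb: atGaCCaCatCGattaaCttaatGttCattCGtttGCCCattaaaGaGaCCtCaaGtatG

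Array quality set how small a change could be seen. The noise of a single probe was 0.152 to 0.372 in the lymphoma arrays and 0.134 to 0.546 in the others, which gives a 5-probe mean a standard error of 0.0601 to 0.244. The noisiest arrays were those labelled no-lymphoma mice 3, 4 and 9. The check of the targeted gene was not uniform. One Atm probe, at position 53461029 of chromosome 9, read 0.95 to 1.32 in all 8 lymphoma arrays. It read -1.08 to 1.69 in the 14 others and lay below 0 in 3 of them, the arrays labelled no-lymphoma mice 1, 3 and 4, which were scanned together. In 9 of the 14 it was above 0.5. No-lymphoma mice 5 and 6 were counted with mice 1, 3 and 4 as the 5 arrays with a low Atm probe. Of 231 pairs of arrays, 8 correlated under -0.3 over all probes, with a lowest r of -0.477, although the labels give every array the same dye orientation. Directions below are those of the labels, and results that rest on these arrays are also given without them. The labels do not say that mice were independent in litter or housing, so p-values measure the spread between these 22 samples.

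No deletion or gain that began and ended inside 1 of the 3 genes was found by segmentation in any mouse. This does not exclude short losses or losses in part of the cells, above all on the noisiest arrays. Nor does it exclude longer losses where Fhit has few probes. A run was counted where at least 5 probes of the gene lay in a segment whose mean was -0.25 or less, or 0.25 or more. Of 66 combinations of gene and mouse, 1 held a loss run and 0 held a gain run. These are 1.52% and 0%, against 2.14% loss runs and 4.78% gain runs over the 28930 combinations of 1315 genes and 22 mice. Among genes of at least 100 probes the shares were 3.81% and 5.35%. Loss runs made up 3.41% of combinations in lymphoma mice and 1.41% in the others. The loss was in Ctnna3 of lymphoma mouse 4, where 151 probes of the gene lay in a segment of mean -0.27. That segment ran over chr10:63343676-65992319, 2.65 Mb and 207 probes, so it began inside the gene and ended more than 1 Mb beyond it. With 1 of 8 against 0 of 14 arrays, Fisher's exact test (two-sided) gave p = 0.364 and an adjusted p of 1 over 2630 tests. In the same test 33 of the 2630 passed, or 1.25%, none of them in these genes. The count depends on the limit: at 0.15 there were 9 loss runs in lymphoma mice, 6 of them in Ctnna3, and 1 in the others. At 0.15 the loss background was 13.7% of all combinations in lymphoma mice and 2.69% in the others, and 9 of 24 and 1 of 42 stand against these.

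**Figure D1:**
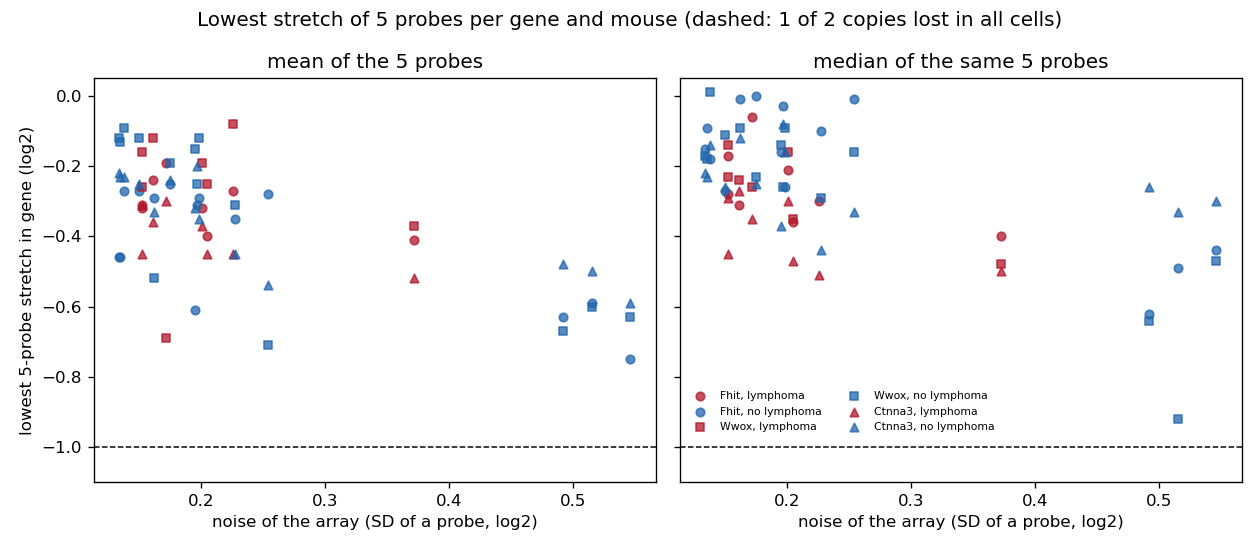
Lowest stretch of 5 neighbouring probes in each gene and mouse (y axis, log2 ratio) against the noise of a probe on that array (x axis, log2), as the mean (left) and the median (right) of the 5 probes. Red marks are lymphoma mice, blue marks the others, shapes are genes, and no stretch reaches the dashed line at -1, the level of 1 of 2 copies lost in all cells.

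The lowest 5-probe stretches did not reach the level of 1 lost copy in any mouse. Their mean was -0.5 or less in 14 of 66 combinations, but only 6 of these were outside the 3 noisiest arrays. In Wwox the lowest stretch of lymphoma mouse 6 averaged -0.69, and -0.28 without its lowest probe, at -2.30. In no-lymphoma mouse 14 the Wwox stretch averaged -0.71, with a median of -0.16, and -0.31 without its lowest probe, at -2.34. In that stretch 2 of the 5 probes were at -0.25 or less. In Fhit the stretch of no-lymphoma mouse 12 averaged -0.61, and -0.03 without the first probe. In these 3 stretches 1 probe carried most of the value. In 4 of these 66 lowest stretches all 5 probes were at -0.25 or less, all of them in Ctnna3: lymphoma mice 2, 3 and 4 and no-lymphoma mouse 11. Their means were -0.45, -0.52, -0.45 and -0.45. Stretches other than the lowest did so in Ctnna3 of lymphoma mouse 7 and Fhit of lymphoma mouse 3. With any stretch counted, that is 5 of 24 combinations in lymphoma mice and 1 of 42 in the others. Among genes of at least 100 probes the shares were 27.6% and 9.56%.

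Segment boundaries inside the genes were found mostly in lymphoma mice and were small. A step of at least 0.25 lay inside 4 of 66 combinations, or 6.06%. The background was 1.05% over all 28930 combinations and 2.86% among genes of at least 100 probes, since longer genes can hold more boundaries. All 4 were in lymphoma mice: 2 in Ctnna3 (mice 2 and 3, steps of -0.26 and -0.35), and 1 each in Fhit (mouse 8, -0.41) and Wwox (mouse 4, 0.26). Fisher's exact test gave an adjusted p of 1 for each of the 3 genes. None of the 1315 genes passed it after adjustment, and 2 passed unadjusted. Boundaries of any size lay in 16 of 66 combinations, 24.2% against 11.6% among genes of at least 100 probes. Over all autosomes, segments numbered 252 to 833 in lymphoma arrays. In the others they numbered from 25, in the arrays labelled no-lymphoma mice 3 and 4, to 742 in no-lymphoma mouse 2. The number of boundaries found thus differed widely between arrays, also at like noise: no-lymphoma mouse 6 had 55 segments at a noise of 0.138, and mouse 2 had 742 at 0.15. Why it differed was not tested. The background shares pool both groups, so they do not show whether the split between groups is particular to these genes.

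**Figure D2:**
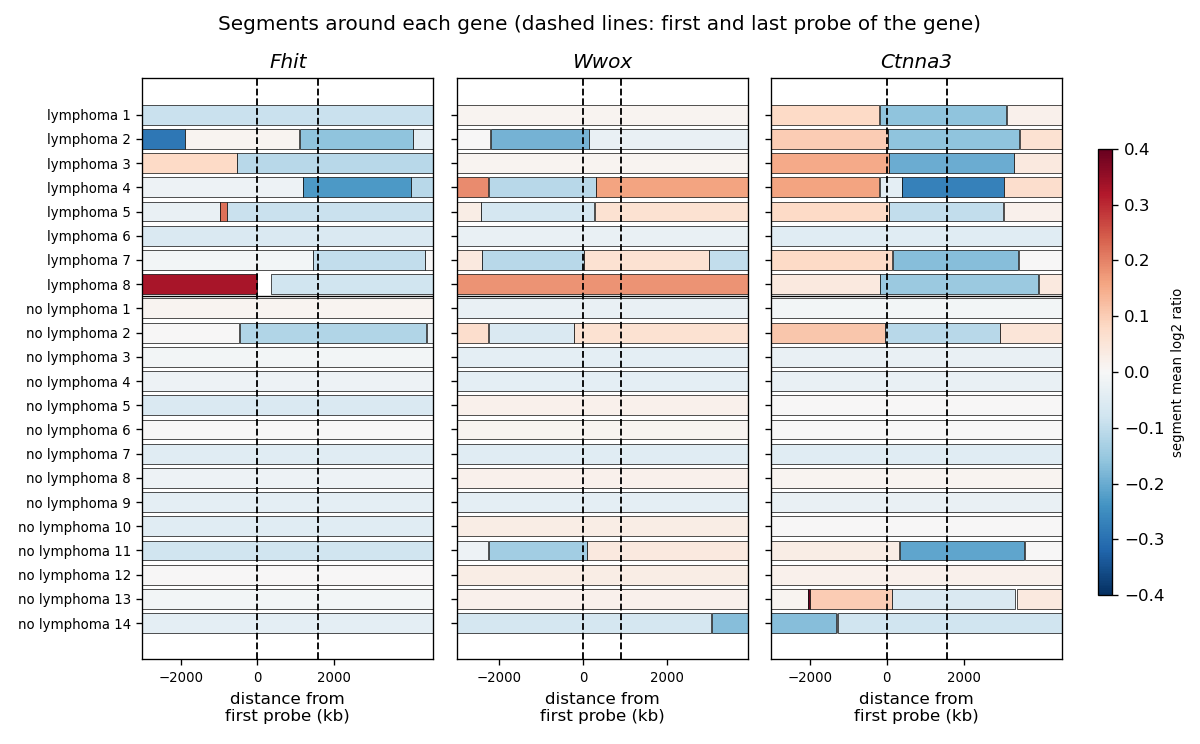
Segments within 3 Mb of each gene, 1 row per mouse, with the distance from the gene's first probe in kb on the x axis and colour giving the segment's mean log2 ratio (blue low, red high). Dashed lines mark the first and last probe of the gene, and low segments of about 3 Mb that start in or just before Ctnna3 recur in 7 of 8 lymphoma mice and in 3 of the others (mice 2, 11 and 13).

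Fhit stayed close to 0 in every mouse. Its mean log2 ratio was -0.10 at the lowest, -0.07 in the median and -0.04 at the highest in lymphoma mice, and -0.11, -0.05 and 0.00 in the others. The ranges overlap almost fully. The difference of -0.02 (SE 0.02, 95% interval -0.07 to 0.03) did not pass limma's test (adjusted p = 0.61). Relative to the flanks the difference was 0.02 (SE 0.02, adjusted p = 0.604). Over the 4 equal parts of the gene the lymphoma mice averaged 0.04 in the first (3 probes), then 0.02, -0.05 and -0.12, and -0.10 in the flank after it, where Ptprg lies. The others averaged -0.37, 0.03, -0.04 and -0.06, and -0.02 in that flank.

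The same chromosome carried high gains elsewhere. In each of the 8 lymphoma arrays chromosome 14 held a segment of at least 20 probes with a mean between 2.23 and 3.90. In lymphoma mouse 8, for example, it was chr14:40178918-40974529 at 3.04. The segment holding the middle of Fhit had a mean of -0.16 to -0.01 in the 8 lymphoma arrays. Of the 14 others, 3 held a chromosome 14 segment of at least 20 probes with a mean of 1 or more. These were at 2.16, 1.91 and 1.35, in no-lymphoma mice 11, 14 and 9. The array labelled no-lymphoma mouse 1 held one at -1.90 over chr14:39705615-41283089, which includes the high segment of lymphoma mouse 8. In lymphoma mice, segments of at least 20 probes outside Fhit with a mean of -0.25 or less or 0.25 or more came no closer than 8.30 Mb, in mouse 8. A segment of fewer probes in lymphoma mouse 2, of mean -0.29, ended at -1891 kb from the first Fhit probe. These distances leave out the segment of mean 0.33 (chr14:3660199-7380626) that ends at the first Fhit probe in lymphoma mouse 8. That end lies anywhere within the gap of 360 kb, so the step of -0.41 there is placed inside the gene by 1 probe.

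Fhit's first probe, shown above, varied more than any other probe of the 3 genes. Its SD over 22 arrays was 1.26, against a median of 0.19 over the probes of Fhit. It read -0.89 to 1.85 in lymphoma mice and -2.95 to 1.08 in the others. The lowest values were -2.95, -2.32 and -2.22 in no-lymphoma mice 12, 8 and 10, which share a scan batch, and the last array of that batch, no-lymphoma mouse 9, read -0.50. The next probe, 360 kb on, read -0.16 in no-lymphoma mouse 12. Without the first probe the Fhit difference from the flanks was 0.00 (adjusted p = 0.932), an alternative chosen after its values were seen.

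Wwox stood higher than its flanks in every lymphoma mouse. Gene minus flanks was 0.06, 0.10 and 0.17 (lowest, median and highest) in the 8 lymphoma mice, all above 0, and -0.13, 0.01 and 0.12 in the 14 others. The groups overlap, with no-lymphoma mice 2, 11 and 13 inside the lymphoma range. The difference of 0.09 (SE 0.03, 95% interval 0.03 to 0.15) passed limma's test with an adjusted p of 0.0464, where 7.15% of 1315 genes passed (5.32% lower and 1.83% higher in lymphoma). With the scan batch as a block it was 0.04 with an adjusted p of 0.568, and within the 4 scan batches that hold both groups it was 0.03, 0.06, 0.08 and -0.02. The 2 lowest values belong to the arrays labelled no-lymphoma mice 3 and 4. Without scan batch 2, which holds them, the difference was 0.06 (adjusted p = 0.11).

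The gene mean of Wwox itself did not pass. It was 0.05 ± 0.08 (SD, n = 8) in lymphoma mice and -0.01 ± 0.07 (SD, n = 14) in the others, a difference of 0.06 (SE 0.04, limma adjusted p = 0.251). In lymphoma mice the flank before Wwox, which holds Clec3a, Vat1l, Nudt7 and Adamts18, averaged -0.07, and the second of the 4 parts of the gene 0.11. The flank after it, towards the transcription factor gene Maf, averaged 0.00. Lymphoma mouse 8 stood apart with a Wwox mean of 0.23, and the segment of mean 0.18 that holds the gene in that mouse runs 22 Mb to the last probe of chromosome 8.

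The 2 Wwox probes shown above read far from 0 in several arrays, of which some are shared. The probe at 115 kb from the gene's start read -2.34 in no-lymphoma mouse 14, -2.05 in mouse 7, -0.97 in mouse 11 and -1.07 in lymphoma mouse 8, which share a scan batch. It read 1.0 in no-lymphoma mouse 13 and between -0.44 and 0.21 in the other 17 arrays. The probe at 414 kb read -2.27, -1.63 and -0.86 in no-lymphoma mice 14, 7 and 11, -0.72 in lymphoma mouse 3 and -0.33 in lymphoma mouse 8. It was high in no-lymphoma mouse 13 at 1.18, and also at 1.1, 1.0 and 0.93 in mice 9, 3 and 4, where the probe at 115 kb read -0.09, -0.44 and -0.29. Next to it in mouse 14, its neighbours 4.71 and 4.80 kb away read 0.38 and 0.23. The probes next to the one at 115 kb read 0.29 and -0.05 in mouse 14, so at these 2 places the low value did not extend to the adjacent probes. The Ctnna3 probe at 389 kb, on another chromosome, was low and high in the same 3 arrays, with -1.88 in no-lymphoma mouse 14, -1.12 in mouse 7 and 0.88 in mouse 13. These probes were singled out after their values were seen.

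Ctnna3 showed the clearest difference of the 3 genes. Its mean was -0.20, -0.15 and -0.09 (lowest, median and highest) in lymphoma mice and -0.19, -0.04 and 0.03 in the others. Only 2 no-lymphoma mice lie inside the lymphoma range, mouse 2 at -0.10 and mouse 11 at -0.19. The difference of -0.11 (SE 0.03, 95% interval -0.16 to -0.05) passed limma's test with an adjusted p of 0.0186, where 9.18% of 12991 genes with at least 3 probes passed (2.51% lower and 6.67% higher in lymphoma). The exact permutation test over 319770 splits gave an unadjusted p of 0.000241. The call was lost with the scan batch as a block, at -0.08 (limma adjusted p = 0.259, exact permutation p within batches 0.0243), although the difference was -0.08, -0.11, -0.04 and -0.07 within the 4 batches. It was also lost without scan batch 2 (-0.09, adjusted p = 0.0684) and with arrays centred on the mode of their probes (-0.07, adjusted p = 0.12). That centring called 84 genes lower and 1017 higher, against 326 and 867 as reported.

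Relative to its flanks Ctnna3 was -0.34, -0.17 and -0.07 in lymphoma mice and -0.22, -0.04 and 0.10 in the others. The difference of -0.13 (SE 0.04, 95% interval -0.21 to -0.05) had a limma adjusted p of 0.0416. It was the ninth lowest of 1315 genes and the third lowest of the 62 with at least 100 probes. With the scan batch as a block it was -0.07 (adjusted p = 0.548), and within the batches -0.08, -0.15, 0.03 and -0.03. The 3 highest values, 0.09, 0.10 and 0.10, belong to the noisiest arrays, and without them the difference was -0.10 (adjusted p = 0.0724).

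The low level of Ctnna3 began near its start and continued beyond its end. In lymphoma mice the flank before the gene, with Dnajc12, the deacetylase gene Sirt1 and Herc4, averaged 0.08. The 4 parts of the gene averaged -0.07, -0.15, -0.17 and -0.19, and the flank after it, where the next named gene is 960 kb away, -0.19. In the others the same stretches averaged 0.01, 0.00, -0.03, -0.05, -0.07 and -0.07. The last 3 parts and the flank after them differed between the groups by the same -0.12. The mean of the flanks rests mostly on the flank before the gene, which has 125 probes against 33 after it. That flank differed between the groups by 0.07, and the gene mean itself by -0.11.

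**Figure D3:**
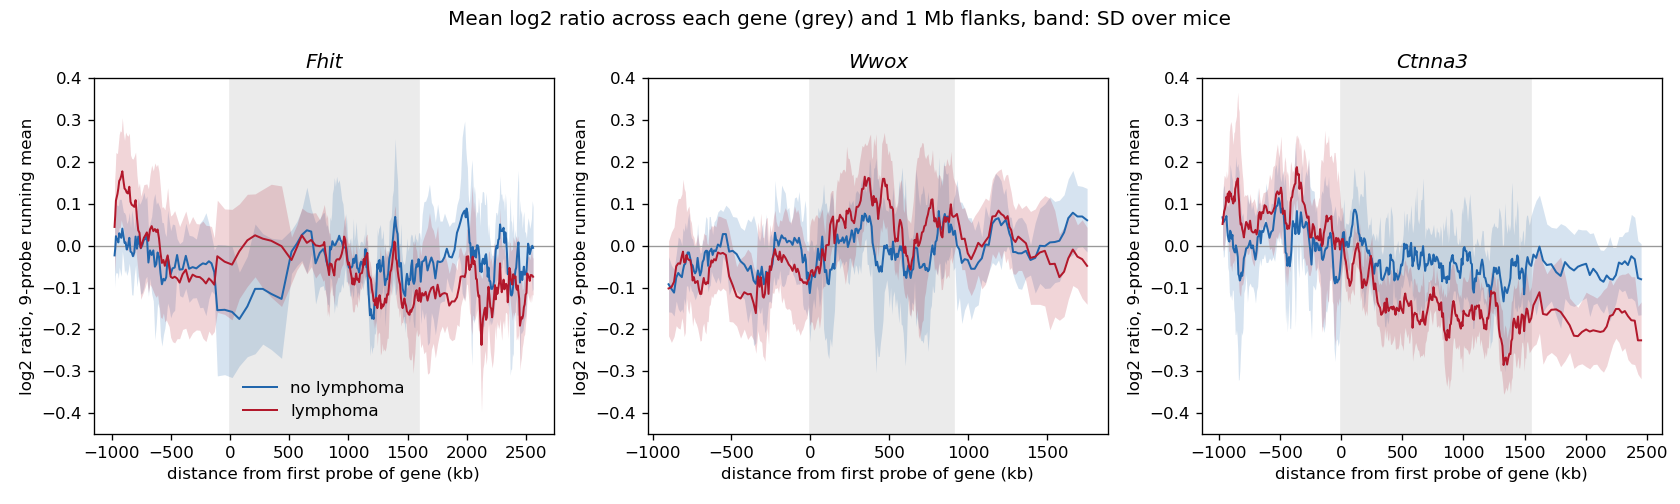
Running mean of 9 probes of the log2 ratio (y axis) against the distance from the gene's first probe in kb (x axis), averaged over 8 lymphoma mice (red) and 14 others (blue), with the SD over mice as a band and the gene in grey. In Ctnna3 both lines fall from the flank before the gene into the gene and stay low after it, and the lymphoma line falls further.

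In 7 of 8 lymphoma mice, all but mouse 6, the middle of Ctnna3 lay in a segment of 2.65 to 4.11 Mb with a mean of -0.27 to -0.10. These segments started between positions 62771030 and 63343676 of chromosome 10 and ended between 65968816 and 66898214. Like segments were found in no-lymphoma mice 2, 11 and 13, with means of -0.11, -0.21 and -0.06. Over all autosomes these 3 arrays held 742, 382 and 251 segments, the most among the no-lymphoma arrays. In lymphoma mouse 6, with 263 segments, the gene lay in a segment of 31.3 Mb and mean -0.05. Lymphoma mouse 3, with 252, is among the 7. How often segments of such length hold other large genes was not counted. No-lymphoma mouse 11 was also like the lymphoma mice on chromosome 15, whose median was 0.47 there, 0.42 to 0.57 in 7 lymphoma mice and 0.15 in lymphoma mouse 8. That median was 0.21, 0.17 and 0.15 in no-lymphoma mice 14, 7 and 9, and -0.05 to 0.02 in the rest of that group. Of 199 probes, 2 passed limma's test over all autosomal probes, where 0.818% were called lower and 2.32% higher. They lie at 688 kb (-0.18 ± 0.17 against 0.07 ± 0.13, adjusted p = 0.0489) and at 1190 kb (-0.37 ± 0.14 against -0.14 ± 0.12, adjusted p = 0.0421; SD, n = 8 and 14). At 87.4% of Ctnna3 probes the difference was below 0, against 64.7% in Fhit, 27.7% in Wwox and 49.1% of all autosomal probes.

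**Figure D4:**
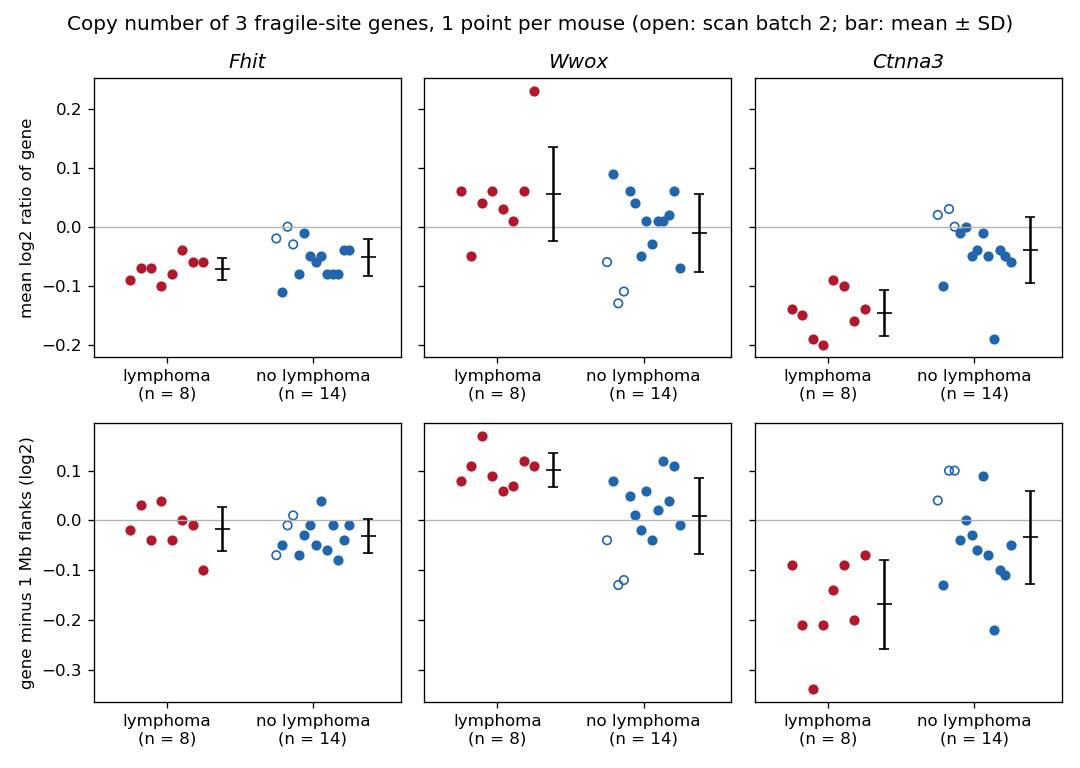
Mean log2 ratio of each gene (top row) and the gene's mean minus that of its 1 Mb flanks (bottom row, both log2) for 8 lymphoma and 14 no-lymphoma mice, 1 point per mouse, with mean and SD beside the points. Open points are the arrays of scan batch 2, the groups overlap in every panel, and all 8 lymphoma mice lie below 0 for Ctnna3 and above 0 for Wwox in the bottom row.

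Against 0, over all 22 arrays, gene minus flanks averaged -0.08 for Ctnna3 (limma adjusted p = 0.00597), -0.03 for Fhit (0.028) and 0.04 for Wwox (0.0389). Of the 1315 genes, 22.9% lay below 0 and 12.8% above it in this test, so such small offsets are frequent on these arrays.

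Lower values in lymphoma mice were common among very large genes. Of the 62 genes with at least 100 probes, 17 passed the test of gene minus flanks, or 27.4%: 16 (25.8%) were lower and 1 (1.61%), Wwox, was higher in lymphoma. Ctnna3 is 1 of the 16. With the scan batch as a block 0 of all 1315 genes passed limma's adjusted test and 158 had an unadjusted p under 0.05, so none of these calls was kept. The median difference was -0.04 over these 62 genes and -0.01 over all 1315. A separate list of 16 other large genes at human common fragile sites had 8 members with enough probes, and 3 of these were lower and 0 higher in lymphoma. They are Cntnap2 and Lrp1b, which encode membrane proteins of neurons, at -0.11 (limma adjusted p = 0.0232) and -0.08 (0.044), and the synaptic scaffold gene Dlg2 at -0.08 (0.0232). These 3 calls were likewise lost with the block. The median of the 8 was -0.02. They held loss runs in 1.7% and gain runs in 1.14% of 176 combinations of gene and mouse.

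**Figure D5:**
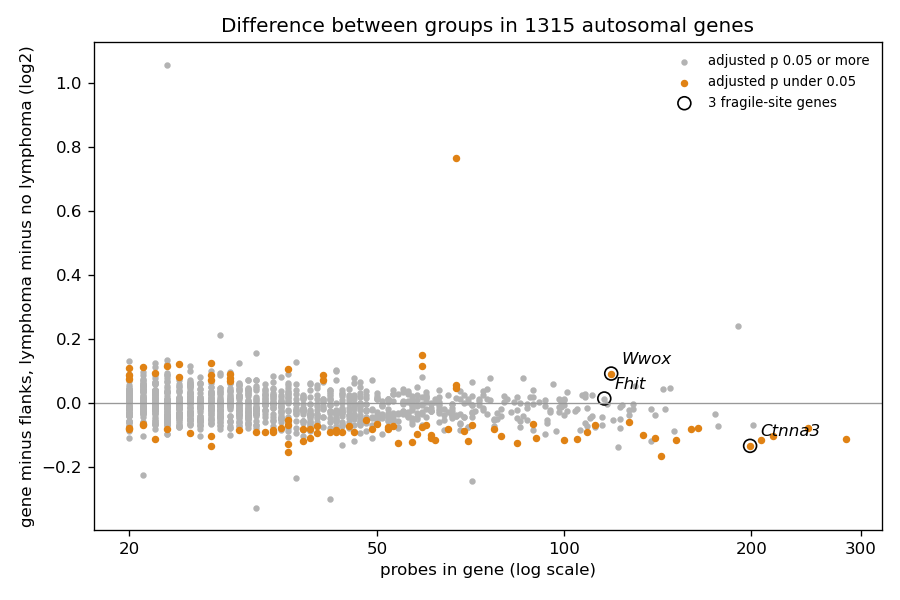
Difference between lymphoma and no-lymphoma mice in gene minus flanks (y axis, log2) against the number of probes in the gene (x axis, log scale) for 1315 autosomal genes. Orange points passed limma's adjusted test, circles mark the 3 genes, and among genes of at least 100 probes 16 orange points lie below 0 and 1, Wwox, above it.

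The 3 genes did not vary together as 1 group. Over the 22 arrays, gene minus flanks of Ctnna3 correlated with that of Wwox at r = -0.909. Fhit correlated with Wwox at r = -0.16 and with Ctnna3 at r = -0.00999. The genes most like each of them were sought only on other chromosomes. Grin2a and Dscam had an r of 0.96 and 0.959 with Ctnna3 over the 22 arrays, and 0.945 and 0.925 within the 8 lymphoma arrays. AK141931 and L12155 had an r of 0.878 and 0.853 with Wwox, which was 0.207 and 0.503 within the lymphoma arrays and 0.935 and 0.832 within the 14 others. AK150302 and Prkch had an r of 0.752 and 0.729 with Fhit, and 0.893 and 0.886 within the lymphoma arrays. These values describe 22 arrays that share the reference and the scan batches. Over the 1315 genes the difference between groups had an r of 0.0346 with the gene's G and C content relative to its flanks and -0.165 with the number of probes, where genes are not independent replicates. With the log ratios of each array corrected for G and C content, an alternative chosen after the data were seen, the differences were -0.15 for Ctnna3 (limma adjusted p = 0.0219) and 0.10 for Wwox (0.0323).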

How the data were processed

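Thymocyte DNA of 22 mice was hybridised to 2-colour Agilent 244A mouse CGH arrays. Per the labels' protocols it was isolated by caesium chloride density centrifugation and cut with AluI and RsaI before Klenow labelling. The files are scanner output of Feature Extraction 9.1.3.1 per the file headers (9.1 per the submitters' processing notes), with protocol CGH-v4_91. The processed red and green intensities are deposited on a linear scale, background-subtracted and dye-normalized by that software per the file headers. The deposited log10 ratio is red over green, and the series' value table equals it.

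From these intensities, log2 ratios of red over green were computed, spots with an outlier mark dropped, spots of a probe averaged and each array centred on its autosomal median, without loess. Probe names and sequences come from the 4 files that hold them. A gene was compared with its flanks of 1 Mb. Segments were found by least-squares partitioning with a penalty of 3 log(n) times the squared noise, at least 5 probes each, after values were clipped to 4 SD from a running median of 7 probes. Groups were compared with limma 3.58.1 (R 4.3.3), Benjamini-Hochberg adjusted over all genes or probes at 0.05, with exact permutation tests over samples and Fisher's exact test, all two-sided. Python 3.11.15, numpy 2.4.6, pandas 2.3.3, scipy 1.17.1, numba 0.67.0 and matplotlib 3.10.9 were used, and the tests were tried on simulated data. Scan batches are the 6 scan days in the file headers. Names were updated through RefSeq's GRCm38.p6 gene table, of which no coordinate was used.

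The 3 genes, the list of other fragile-site genes and the tests were chosen with earlier results of these data known. A further gene that the same rule selects, and 1 gene of that list, are not reported here, and every count of members leaves them out. Probes were named by rule: per gene, those with the lowest and highest mean, those that differed between groups, and the most variable ones. The probe with the lowest single value outside the 3 noisiest arrays was also named, which for Ctnna3 is the one at 389 kb. The genes most like each member were sought among autosomal genes of at least 20 probes on other chromosomes. Those with the highest correlation over the 22 arrays were named.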

Additional observations from a re-analysis of the deposited data

Results flagged for a closer look

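In 1 of 6 checks, 1 lymphoma mouse lay apart from the other 7 beyond Dixon's 95% critical value for 8 samples; chance alone marks about 1 in 20 such groups. The Wwox gene mean of lymphoma mouse 8 was 0.23, against -0.05 to 0.06 in the others (gap over range 0.62). Its flanks both averaged 0.12.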

How the results depend on the processing

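Of 184 alternative values for 14 results, 132 kept their direction and their side of the threshold or stayed close to the value reported. Adjusted p-values are limma's and stand in brackets, and the causes of the changes were not tested. The Fhit differences changed sign but did not pass in either case: the gene mean was 0.02 with arrays centred on the mode of their probes, and gene minus flanks was -0.01 as a median of probes.

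The Ctnna3 gene mean no longer passed at -0.07 (0.12) centred on the mode, -0.06 (0.353) with normexp, -0.08 (0.259) with scan batch as a block, -0.09 (0.0684) without scan batch 2, -0.08 (0.196) leaving out the 5 arrays whose Atm probe was low, and -0.09 (0.0557) without the noisiest array of each group (lymphoma mouse 3 and no-lymphoma mouse 3). Over all genes 1193 gene means were called, against 640, 426, 710 and 489 with normexp, the block, without batch 2 and without the 5 arrays.

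For gene minus flanks the calls of Wwox and Ctnna3 were lost in most alternatives. With normexp Wwox was 0.06 (0.15) and Ctnna3 -0.09 (0.208). With scan batch as a block they were 0.04 (0.568) and -0.07 (0.548), and with flanks of 0.5 Mb 0.09 (0.1) and -0.14 (0.127). With flanks of 2 Mb Wwox was 0.07 (0.055). Without scan batch 2 they were 0.06 (0.11) and -0.10 (0.115), leaving out the 5 arrays whose Atm probe was low 0.06 (0.241) and -0.09 (0.275), without the 3 noisiest arrays 0.06 (0.0662) and -0.10 (0.0724), and without the noisiest array of each group 0.07 (0.111) and -0.10 (0.111). With the sign of scan batch 2 turned they were 0.05 (0.156) and -0.10 (0.0828), and with that of mice 3, 4 and 9 turned Wwox was 0.05 (0.107). As a median of probes Ctnna3 was -0.12 (0.0662).

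The 94 genes called in gene minus flanks became 0 with normexp, with the block, without the 5 arrays and without the noisiest array in each group. With p under 0.05 before adjustment, those 4 settings gave 272, 158, 193 and 302 genes. The count was 50 as medians of probes, 18 and 184 with flanks of 0.5 and 2 Mb, 4 without batch 2, 41 with the sign of batch 2 turned and 200 with that of mice 3, 4 and 9 turned.

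The 1 loss run in lymphoma mice became 0 with normexp or at a limit of 0.4, 9 at a limit of 0.15 and 5 without segmentation. Loss runs in the others went from 0 to 1 at 0.15 and 1 without segmentation. Gain runs went from 0 to 2 at 0.15 and 1 without segmentation in lymphoma mice, and to 3 without segmentation in the others. The 3 genes give 24 combinations in lymphoma mice and 42 in the others. Without segmentation, genes of at least 100 probes held loss runs in 27.6% of combinations in lymphoma mice and 9.56% in the others. Their gain runs made up 10.3% and 8.53%. At 0.15, gain runs lay in 12.8% of all combinations in lymphoma mice and 3.54% in the others. The 4 boundaries became 2 with normexp and 2 with a penalty of 2. Normexp used median spot signals, since mean signals were used from no more than 4 files. No paired analysis was possible because the labels give no replicate numbers shared between groups.

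Probe spacing and noise limit the depth: losses shorter than 5 probes, about 30.4 kb, or carried by few cells are below what was measured. The correction for G and C content, the fits without no-lymphoma mouse 11 and those without the first Fhit probe were chosen after seeing the data.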

Other observations

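Single probes of the 3 genes differed widely between arrays. The Ctnna3 probe that starts at position 63672750 of chromosome 10 read -1.38, -1.58 and -1.79 in the arrays labelled no-lymphoma mice 3, 4 and 9 and 1.28 in lymphoma mouse 3. Probes with an SD of at least 0.5 over the 22 arrays were 9 of 116 in Fhit (7.76%), 7 of 119 in Wwox (5.88%) and 5 of 199 in Ctnna3 (2.51%), against 8.93% of all autosomal probes. The median SD was 0.19, 0.25 and 0.20 in the 3 genes and 0.26 over all autosomal probes.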
